A study of Mus musculus with 7 samples.

Results

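Serine proteases cut proteins with an active-site serine, and serpins are a large family of proteins, most of which trap such proteases by offering a bait loop. The set described here held every gene whose symbol named it as a serpin (clades a to i), a transmembrane serine protease (Tmprss), a Prss protease, a kallikrein (Klk), a Kunitz-type Spint inhibitor or an Htra protease, together with St14, Hpn, Plat, Plau and Plaur. Of the 17096 genes with a probe set of a single symbol, 111 met that rule, through 146 probe sets. They comprised 67 proteases, 43 inhibitors and serpins, and Plaur, a receptor. The probe set with the highest mean log2 intensity stood for each gene, and 27 genes had several probe sets.

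The proteases of this set work in chains. Secreted plasminogen activators turn plasminogen into plasmin, while matriptase, prostasin, hepsin and the Tmprss enzymes sit on the surface of epithelial cells, where the Spint inhibitors restrain them. Other members do other work: kallikreins are secreted by glands and skin, Htra1 acts in the extracellular matrix, and the serpin HSP47 folds collagen without inhibiting any protease.

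RNA was measured on 7 Affymetrix mouse arrays of sorted mammary cells. The luminal arrays (n = 2) held YFP-positive cells of K8CREERT2/RosaYFP mice, in which the keratin 8 promoter drives a tamoxifen-inducible Cre that switches on YFP. The basal arrays (n = 2) held YFP-positive cells of K5CREERT2/RosaYFP mice, in which the keratin 5 promoter drives it. Both were taken 8 weeks after tamoxifen. The embryonic arrays (n = 3) held cells high in CD49f and in the GFP of an Lgr5-IRES-GFP reporter, from female embryos at embryonic day 14. Every embryonic array pooled all females of 1 litter, with 2000 cells sorted for replicates 1 and 2 and 813 for replicate 3. Cre reporters mark only cells in which the promoter was active at induction and the descendants of those cells. The labels give neither the age of the adult mice nor a source animal for each adult replicate. The p-values therefore measure only the spread between these arrays, and their small number limits the precision of every value. Adult arrays were marked as analysed again, and their tissue label names the embryonic gland; they were grouped by title.

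The sorted lineages differed in their markers, though each also held signal of the other lineage's list. Of 13 luminal markers, 8 were called higher in the luminal arrays, with a median log2 difference of 1.18, and of 11 basal markers 9 were called higher in the basal arrays, with a median of -2.77. Krt5 differed by -2.75, whereas Krt8, which drove the luminal label, differed by only 0.40 and was not called. Intensities of the luminal list summed to 15334 and 14575 in luminal and 7907 and 8447 in basal replicates 1 and 2. Those of the basal list summed to 3139 and 3942 in luminal and 18262 and 19412 in basal replicates. Over the basal list, luminal replicate 2 exceeded luminal replicate 1 by a median of 0.25 log2 units. Over the luminal list, basal replicate 2 exceeded basal replicate 1 by a median of 0.37. A list of 16 fibroblast markers also leaned to the basal arrays: 6 were called higher there, and its summed intensity was 3490 and 5649 in luminal replicates 1 and 2 against 9537 and 11163 in basal replicates 1 and 2, with Pdgfra not above background. The 14 endothelial markers summed to 550 and 914 against 1297 and 2066, with none called and all 14 above background in a lineage. The embryonic columns stood apart from the rest of the table. Replicates 1 and 2 held the same value to the last digit in 16913 probe sets (37.6%), against at most 94 (0.209%) between any 2 adult arrays. Embryonic minus adult means had an SD of 0.09 over all probe sets, against 0.49 for luminal minus basal, so embryonic levels lay close to the adult mean for most genes whatever their role.

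Between the adult lineages, 14 of the 111 genes (12.6%) were called, where a call required an adjusted p under 0.05 in limma and at least a 2-fold difference. Over all 17096 genes the share called was 5.49% (939 genes). Each count by family or partner list below stands beside that same share. Higher in luminal cells were 8 genes (7.21%, against 2.87% of all genes): Klk10, Tmprss13, Klk11, Prss8, Tmprss2, Hpn, Spint1 and St14. Higher in basal cells were 6 genes (5.41%, against 2.63% of all genes): Serpina3n, Plat, Htra1, Serping1, Serpinh1 and Prss12. Among the luminal 8, Spint1 was the only inhibitor and the rest were proteases, while the basal 6 comprised 3 proteases and 3 serpins. The median log2 difference over the 111 genes was -0.02, against 0.02 over all genes. Luminal and basal arrays did not overlap for 63 of the 111 genes (56.8%), against 59.2% of all genes, a share near that of all genes.

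**Figure D1:**
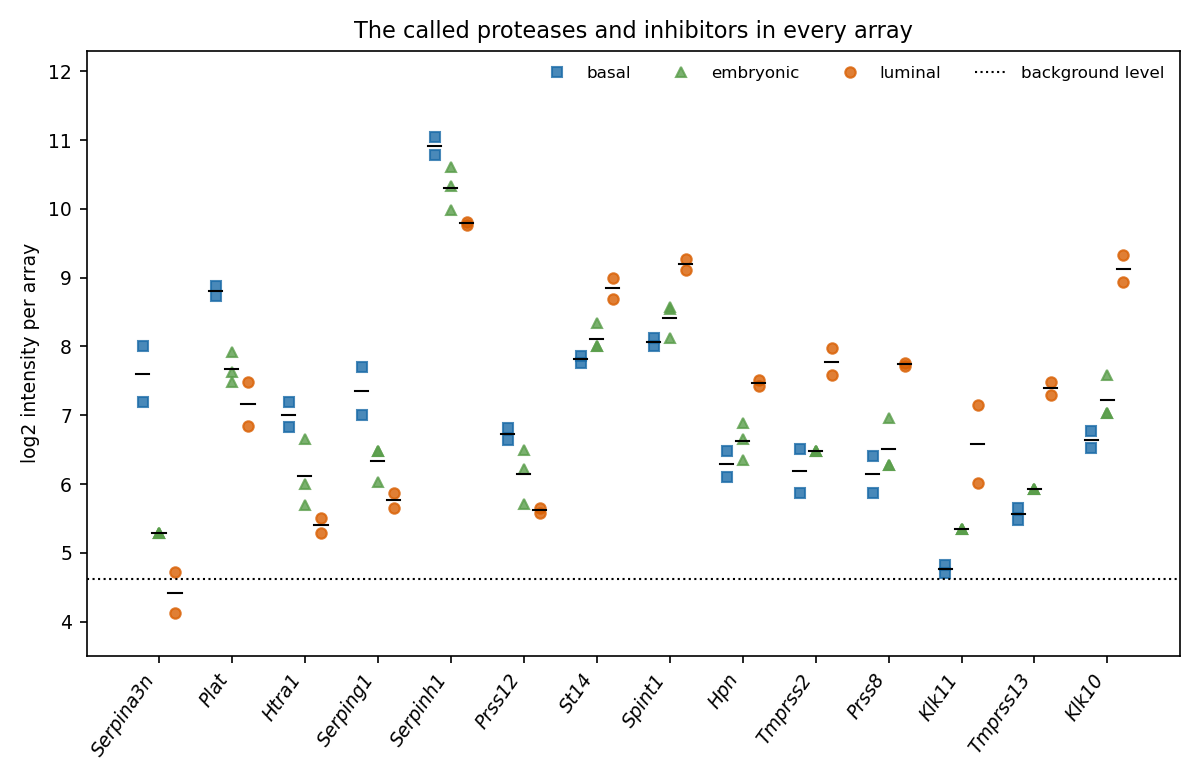
The log2 intensity of the 14 called genes in every array: basal (squares), embryonic (triangles) and luminal (circles), with black bars for group means and a dotted line for the background level of 4.61. In each gene the luminal and basal arrays do not overlap, and the embryonic points fall between the luminal and basal means. The genes were picked by calls on these same arrays, and 59.2% of all genes did not overlap either. Embryonic levels lay close to the adult mean for most genes.

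These calls rested on all 4 adult arrays. With luminal replicate 1 left out, only 2 of the 111 genes were called, with luminal replicate 2 left out 5, with basal replicate 1 left out 4, and with basal replicate 2 left out 5. Over all genes the same counts were 60, 148, 180 and 377. Tmprss13 was the 1 gene of the 14 that stayed called in every one of these fits, with adjusted p from 0.0178 to 0.0385. Serpina3n and Klk10 each kept the call in 3 of the 4, losing it without luminal replicate 1 (adjusted p of 0.0636 and 0.0676 in limma). No difference among the 14 changed sign. With 1 array left out none could, since the luminal and basal arrays of these genes did not overlap. These fits pooled the spread of all 3 groups, embryonic arrays included. Tmprss13, Serpina3n, Klk11 and Tmprss2 held the same value in all 3 embryonic arrays, which lowers their pooled spread. A call kept here therefore rests partly on embryonic values that were not independent. A fit of only the 4 adult arrays called the same 14 genes.

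**Figure D2:**
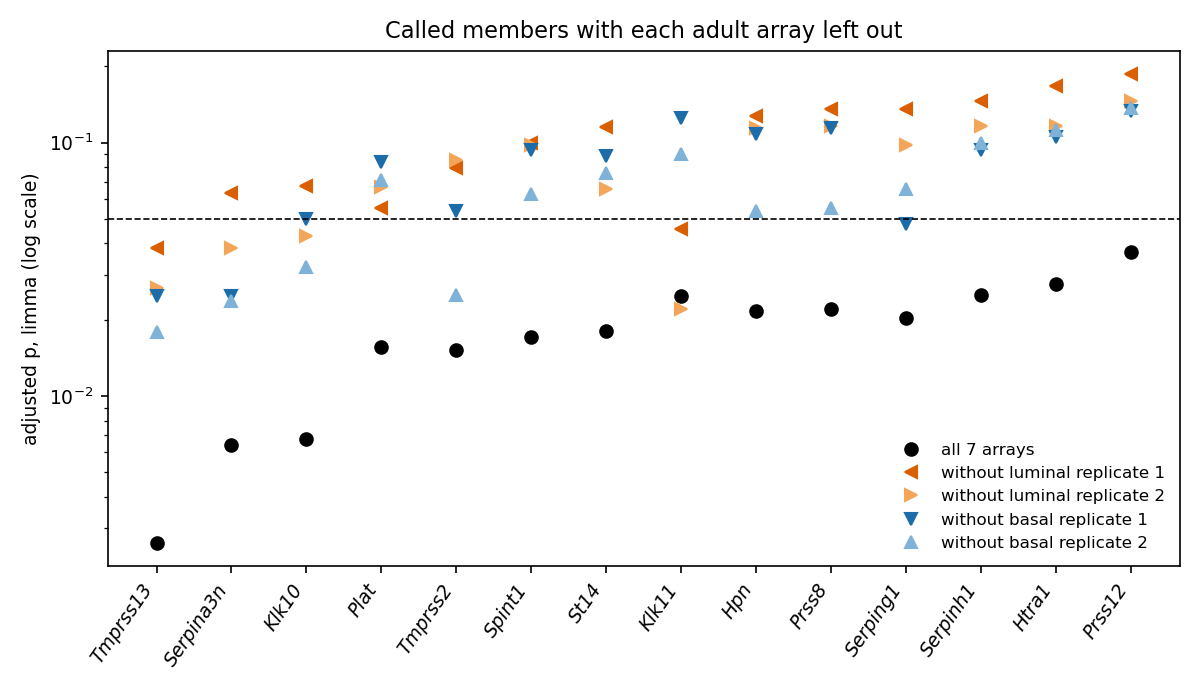
Adjusted p from limma (log axis) for each of the 14 called genes with all 7 arrays (black) and with each adult array left out, against the threshold of 0.05 (dashed). Only Tmprss13 lies under the line throughout, and Prss12 reaches the highest value, 0.186.

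RefSeq promoter windows (GRCm38.p6, 250 bases before to 50 after a transcription start) were found for 90 of the 111 genes and for 9 of the 14 called. The arrays do not tell which start was used. Windows of 6 called genes are printed 5′ to 3′ on the gene's strand. Klk10 and Serpina3n are shown for the largest difference on either side, Klk11 because it neighbours Klk10, Spint1 and Tmprss2 as an inhibitor and a protease of the epithelial surface, and Serpinh1 as the collagen chaperone. Capitals mark GGAAG (the core of ETS sites), TATAAA (the TATA box) and GAANNTTC (the core of heat shock elements) on either strand.
Spint1 (chr2:119237110-119237409, plus strand): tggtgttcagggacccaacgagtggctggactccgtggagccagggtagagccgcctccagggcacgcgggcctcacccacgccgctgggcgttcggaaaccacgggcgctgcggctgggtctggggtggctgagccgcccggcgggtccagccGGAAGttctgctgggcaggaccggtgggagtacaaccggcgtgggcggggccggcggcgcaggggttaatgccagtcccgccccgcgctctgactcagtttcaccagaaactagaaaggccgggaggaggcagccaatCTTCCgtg
Tmprss2 (chr16:97611146-97611445, minus strand): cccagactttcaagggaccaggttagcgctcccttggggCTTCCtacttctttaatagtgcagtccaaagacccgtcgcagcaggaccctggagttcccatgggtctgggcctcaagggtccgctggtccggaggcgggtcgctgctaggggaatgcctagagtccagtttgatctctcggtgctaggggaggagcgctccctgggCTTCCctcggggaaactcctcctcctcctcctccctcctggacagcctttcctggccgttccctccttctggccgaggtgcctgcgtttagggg
Klk10 (chr7:43780804-43781103, plus strand): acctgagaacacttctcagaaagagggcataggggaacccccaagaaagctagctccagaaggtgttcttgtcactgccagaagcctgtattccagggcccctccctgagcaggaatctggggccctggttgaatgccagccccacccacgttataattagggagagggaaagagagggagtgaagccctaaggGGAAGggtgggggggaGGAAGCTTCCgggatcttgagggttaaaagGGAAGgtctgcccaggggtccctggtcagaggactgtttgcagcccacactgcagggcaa
Klk11 (chr7:43776079-43776378, plus strand): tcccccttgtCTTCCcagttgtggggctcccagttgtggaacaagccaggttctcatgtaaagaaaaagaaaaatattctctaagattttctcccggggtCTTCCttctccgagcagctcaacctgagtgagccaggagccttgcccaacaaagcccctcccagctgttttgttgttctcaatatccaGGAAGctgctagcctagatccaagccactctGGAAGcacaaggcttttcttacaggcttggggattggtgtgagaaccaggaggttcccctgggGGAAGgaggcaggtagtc
Serpinh1 (chr7:99353190-99353489, minus strand): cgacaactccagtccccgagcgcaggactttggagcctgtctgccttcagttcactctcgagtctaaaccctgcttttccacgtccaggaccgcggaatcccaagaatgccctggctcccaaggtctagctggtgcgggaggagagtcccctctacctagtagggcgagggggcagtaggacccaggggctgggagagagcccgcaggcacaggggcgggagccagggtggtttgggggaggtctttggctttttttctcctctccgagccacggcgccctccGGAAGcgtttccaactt
Serpina3n (chr12:104406458-104406757, plus strand): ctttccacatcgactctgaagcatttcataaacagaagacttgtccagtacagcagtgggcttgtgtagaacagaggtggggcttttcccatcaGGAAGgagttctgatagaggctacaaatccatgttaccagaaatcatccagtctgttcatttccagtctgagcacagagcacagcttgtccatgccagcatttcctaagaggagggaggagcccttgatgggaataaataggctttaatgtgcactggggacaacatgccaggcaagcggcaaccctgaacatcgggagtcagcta
Over all 32841 windows of this length, 71.4% held GGAAG, 13.6% held TATAAA and 7.86% held GAANNTTC, and the median GC content was 52.67% with 7 CpG dinucleotides. Of the 11 windows of called genes, 10 held GGAAG, and of the 107 windows of all members 77 did. Klk10 held 4 and this Klk11 window 5, a number of at least 4 being found in 6.04% of all windows; the other Klk11 window held 2. TATAAA was in none of the 11 windows. CANNTG (the E-box), planned but not marked here, was in 5 of the 11, 80 of the 107 and 72.3% of all windows. Spint1 and Tmprss2 had 28 and 13 CpG dinucleotides, Serpinh1 had 16, and Klk10, Klk11 and Serpina3n had 2, 2 and 3. GAANNTTC was searched because HSP47, the product of Serpinh1, is a heat shock protein. The Serpinh1 window held 0 and the Klk10 window 1, which overlaps 2 of its GGAAG matches. It was in 2 of the 11 windows, the other being a window of Hpn that is not printed. Matches describe letters in a window, and binding was not measured here.

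Among the membrane-anchored proteases, 4 of 13 genes were called, all higher in luminal cells, and the median difference was 0.19. Tmprss13, a transmembrane protease of epithelia, read 7.49 and 7.29 in the luminal arrays and 5.48 and 5.64 in the basal arrays. Every luminal array stood above every basal array by a wide margin and replicates lay close together. The difference was 1.83 ± 0.11 (SE), a 3.55-fold excess (adjusted p = 0.00264, limma). Tmprss2, an epithelial protease known for priming viral envelope proteins, read 7.58 and 7.97 against 5.88 and 6.50. Its basal arrays were further apart than its luminal arrays, without overlap, and the difference was 1.59 ± 0.22 (3.01-fold, adjusted p = 0.0151). A second Tmprss2 probe set differed by 2.26 in the same direction and was also called, and a further one, below background in both lineages, by 0.35.

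Matriptase and hepsin were also higher in luminal cells. Hepsin (Hpn), a protease that can activate hepatocyte growth factor, read 7.43 and 7.52 in luminal and 6.10 and 6.48 in basal arrays. The luminal pair was tight and the groups were apart, with a difference of 1.18 ± 0.20 (2.27-fold, adjusted p = 0.0216). Matriptase (St14), the protease that starts surface cascades in epithelia, read 8.998 and 8.69 against 7.87 and 7.77. Its difference of 1.03 ± 0.16 (2.04-fold, adjusted p = 0.0180) was just past the 2-fold limit and fell to 0.96, under it, after quantile normalization. Leaving out single adult arrays ended the calls of Hpn (adjusted p 0.0538 to 0.127) and St14 (0.0655 to 0.116) each time, and that of Tmprss2 in all but 1 case, without basal replicate 2 (0.0250 to 0.0855 over the 4 fits). The other 9 membrane-anchored proteases ran from -0.19 to 0.55 and were not called. Tmprss6, which cuts the iron regulator hemojuvelin in liver, had the value at the upper end, 0.55 (adjusted p = 0.0291, under 2-fold).

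Prostasin and Spint1, partner and inhibitor of matriptase, were higher in luminal cells as well. Prostasin (Prss8), a GPI-anchored protease that acts with matriptase, read 7.72 and 7.76 in luminal and 5.87 and 6.41 in basal arrays. The luminal pair differed by far less than the basal pair, and the groups did not overlap. The difference was 1.60 ± 0.28 (3.04-fold, adjusted p = 0.0221). Spint1 (HAI-1), a Kunitz inhibitor of matriptase and hepsin, read 9.12 and 9.28 against 8.00 and 8.12, a difference of 1.14 ± 0.17 (2.20-fold, adjusted p = 0.0171). Spint2 (HAI-2), its relative, read 10.86 and 10.64 against 10.01 and 10.36. All Spint2 arrays were bright and the luminal arrays stood above the basal ones, but the difference of 0.56 ± 0.22 was not called (adjusted p = 0.147). Spint4, not above background in either lineage, differed by -0.29. Without any one adult array, the calls of Prss8 (adjusted p 0.0554 to 0.135) and Spint1 (0.0627 to 0.0993) were lost.

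A list of the matriptase system measured 10 further genes that the rule did not take. It was drawn from textbook partners, with earlier results of these data known. Of these, Scnn1a, a subunit of the epithelial sodium channel that prostasin activates, was higher in luminal cells (1.20 ± 0.25, adjusted p = 0.0315). Hgf, whose precursor hepsin and matriptase can cut, was higher in basal arrays (-2.34 ± 0.35, adjusted p = 0.0166). Its receptor Met differed by 0.42 and the adhesion protein Epcam by 0.39, and neither was called. The median of these 10 genes was 0.05.

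**Figure D3:**
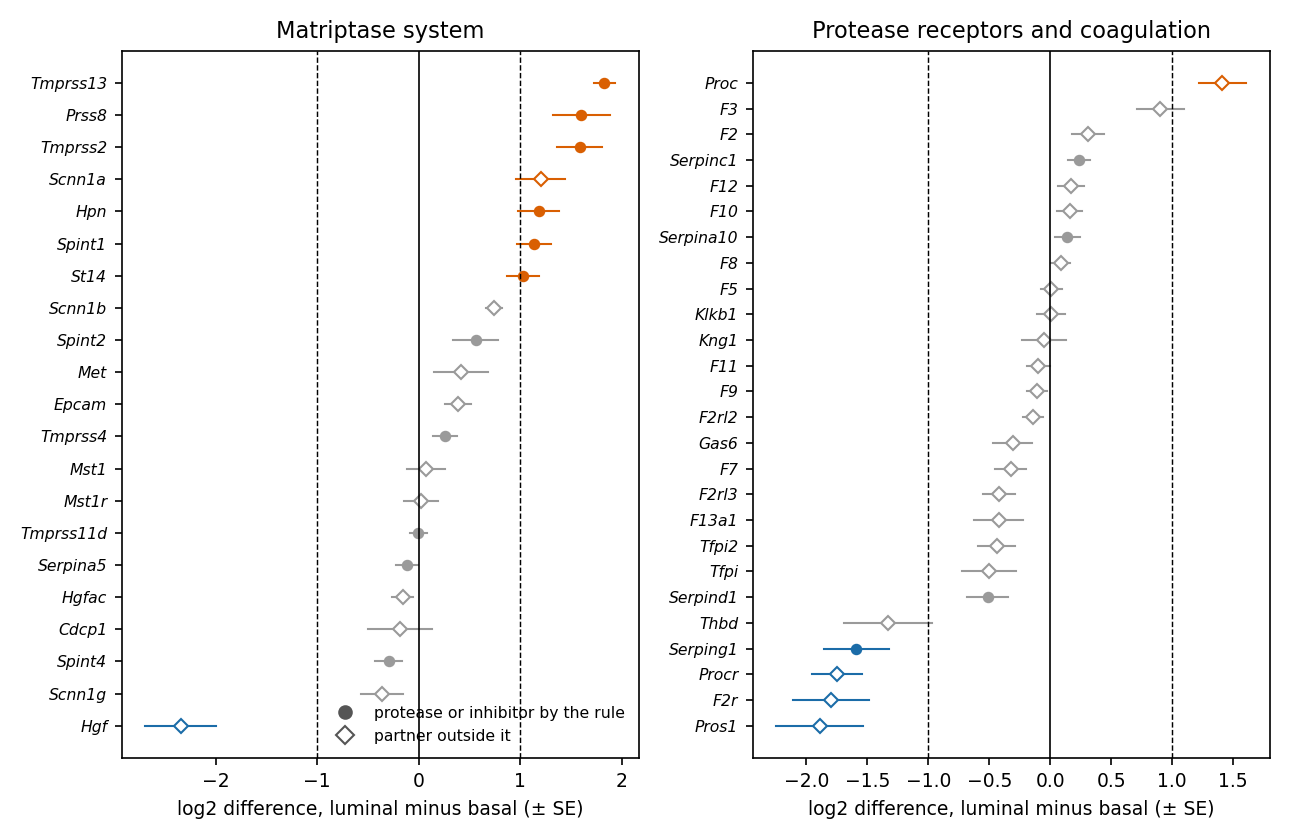
Log2 difference, luminal minus basal, with its SE for genes of the matriptase list (left) and of the protease-receptor and coagulation list (right): filled circles are genes of the set, open diamonds other genes, orange called higher in luminal, blue called higher in basal and grey not called. On the left 6 proteases and inhibitors lie past the 2-fold line at the luminal end with Scnn1a, while Hgf lies alone at the basal end.

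Of the 17 kallikreins, 2 were called, both higher in luminal cells. Klk10 and Klk11 are secreted proteases expressed in glands and stratified epithelia. Klk10 had the largest luminal excess of the set: 9.33 and 8.93 in luminal against 6.52 and 6.77 in basal arrays. The groups stood apart by more than any spread within them, with a difference of 2.49 ± 0.23 (5.61-fold, adjusted p = 0.00676). Klk11 read 7.15 and 6.01 against 4.70 and 4.82. Its luminal arrays were more than 1 log2 unit apart and its basal arrays barely above the background level of 4.61, so that its difference of 1.82 ± 0.33 (3.53-fold, adjusted p = 0.0249) ran from 1.25 to 2.39 as single adult arrays were left out. The call was lost without basal replicate 1 or 2, at an adjusted p of up to 0.125. Klk10 lost its call without luminal replicate 1 (adjusted p = 0.0676).

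In the gene order of GRCm38.p6, 17 kallikreins formed a run on chromosome 7 that opened with Klk11 and Klk10 next to each other. The next measured kallikrein, Klk8 (neuropsin), differed by 0.99 ± 0.35 and was not called (adjusted p = 0.115), with 7.38 and 6.98 in luminal and 5.85 and 6.53 in basal arrays. Beyond it, Klk7 differed by 0.07, Klk6 by 0.30 and Klk4 by 0.01. At the far end, Klk1 (tissue kallikrein) differed by -0.60 (adjusted p = 0.0365, under 2-fold) in its brightest probe set. Its other probe sets, below background, differed by 0.53 and 0.35, and the mean over all 3 gave 0.10, so the direction for Klk1 was not settled. The 10 Klk1b copies between them are near-identical and their probe sets may not tell them apart. None was called in limma, 3 passed an unadjusted p under 0.05, and their values ran from -0.07 to 0.63 with a median of 0.36. Of all 17096 genes, 5352 passed that unadjusted p and 5.49% were called. Klk1b11 differed by 0.54 (adjusted p = 0.0376, under 2-fold). Klk1, Klk1b11 and Tmprss6 are named because their adjusted p passed while their fold did not, a choice made after the values were seen.

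Of the 31 Prss proteases, Prss8 was the 1 called higher in luminal and Prss12 the 1 called higher in basal cells, and the median was -0.02. Prss12 (neurotrypsin), a secreted protease best known at synapses, read 5.59 and 5.65 in luminal and 6.63 and 6.82 in basal arrays. Replicates were close, and the difference of -1.11 ± 0.24 (2.16-fold, adjusted p = 0.0369) was the least firm of the 14. It was lost without any one adult array (adjusted p 0.133 to 0.186) and also without embryonic replicate 2 (0.0594). Prss22, a secreted tryptase-like protease of epithelia, read 8.31 and 8.13 in luminal against 7.22 and 7.31 in basal arrays. Its replicates hardly differed, and its 0.96 ± 0.10 passed the adjusted p (0.00774) but stopped short of 2-fold. It was called without luminal replicate 2 and without basal replicate 2. Prss53 read 7.13 and 6.97 against 6.90 and 6.83, a difference of 0.18. Prss23 differed by -0.78 in its brightest probe set and was not called. A further Prss23 probe set differed by -0.88 and was not called either. Another differed by -1.31 and was called higher in basal cells (adjusted p = 0.0255 among all probe sets, limma). Its luminal mean of 4.19 lay below background. Prss23 is named for that probe set, a choice made after the values were seen. Only 15 of the 31 Prss genes lay above background in either lineage.

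**Figure D4:**
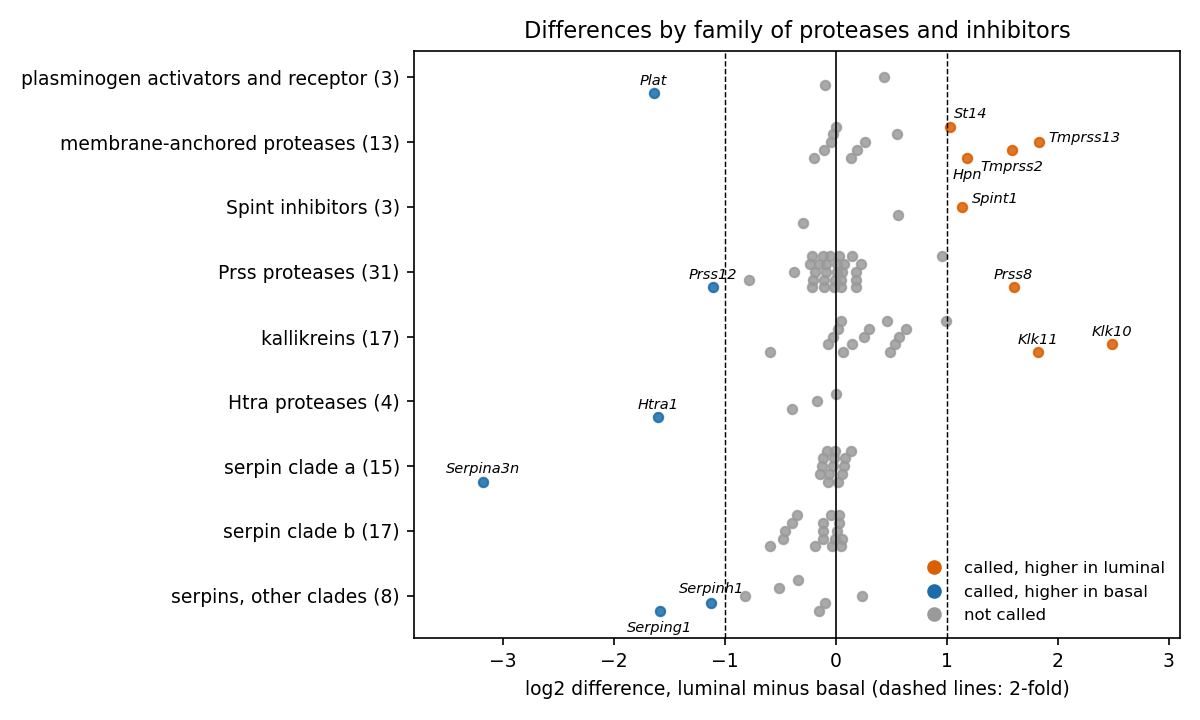
Log2 difference, luminal minus basal, of each of the 111 genes by family (numbers in brackets count genes; vertical spread within a family is only for display), with dashed lines at 2-fold. Orange genes are called higher in luminal and blue ones higher in basal. Of the 40 serpins only 3 are called, all on the basal side.

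The plasminogen activators differed in pattern. Tissue plasminogen activator (Plat) read 7.49 and 6.84 in luminal and 8.74 and 8.88 in basal arrays. The basal pair was tight and above both luminal arrays, with a difference of -1.64 ± 0.24 (3.12-fold, adjusted p = 0.0156). The second Plat probe set, near background, differed by -0.64 and was not called. Urokinase (Plau) read 7.57 and 6.95 against 6.65 and 6.997, and its receptor Plaur 8.71 and 8.15 against 8.73 and 8.33. Both pairs overlapped between lineages. The differences were 0.44 ± 0.24 for Plau (adjusted p = 0.269) and -0.10 ± 0.26 for Plaur (adjusted p = 0.838). Plat lost its call without any one adult array (adjusted p 0.0551 to 0.0841). Of 9 other genes of plasminogen activation, Lrp1, a large endocytic receptor, was the 1 called, higher in basal arrays at -2.36 ± 0.25 (adjusted p = 0.00884). Anxa2, a cell-surface plasminogen receptor, differed by 0.30.

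Htra1, a secreted protease of the matrix, was the 1 of 4 Htra proteases called. It read 5.29 and 5.51 in luminal and 6.82 and 7.19 in basal arrays, without overlap. The difference was -1.61 ± 0.31 (3.04-fold, adjusted p = 0.0278), and without any one adult array the adjusted p was 0.105 to 0.167. The other Htra genes ran from -0.39 to -0.0013. Of 16 genes listed with the Htra proteases, the matrix genes Eln (-3.27 ± 0.61, adjusted p = 0.0252) and Bgn (-2.75 ± 0.54, adjusted p = 0.0288) were higher in basal arrays, and Ltbp1, a carrier of latent TGF-beta, was higher in luminal arrays (1.02 ± 0.16, adjusted p = 0.0179).

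Of the 40 serpins, 3 were called and all 3 were higher in basal cells, and the median was -0.09. Of all genes, 5.49% were called, 2.63% as higher in basal cells. Only 11 of the 40 serpins lay above background in either lineage. Serpina3n, a secreted inhibitor of leukocyte proteases, had the largest difference of the 111 genes: 4.13 and 4.71 in luminal against 7.20 and 8.01 in basal arrays. Both basal arrays were far above the luminal ones, of which replicate 1 was below the background level of 4.61 and replicate 2 just above it. The difference was -3.18 ± 0.29, or 9.07-fold (adjusted p = 0.00641), a size that depends on a luminal level at background. The call was lost without luminal replicate 1 (adjusted p = 0.0636). Serpina3 genes are near-identical copies and the probe set may take up others. Serpina3i, the nearest measured copy in gene order, differed by -0.07 at about background. In the run of 14 Serpina genes on chromosome 12, Serpina3n was the only one called, and the other Serpina genes of the set ran from -0.14 to 0.14.

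Serping1 (C1 inhibitor), which restrains complement and the contact system, read 5.66 and 5.88 in luminal and 7.01 and 7.70 in basal arrays. The groups stood apart, with a difference of -1.59 ± 0.26 (3.01-fold, adjusted p = 0.0204). Serpinh1 (HSP47), the collagen chaperone of the endoplasmic reticulum, read 9.77 and 9.81 against 10.78 and 11.04. It was bright in all arrays, its luminal pair nearly coincided, and the difference was -1.12 ± 0.21 (2.18-fold, adjusted p = 0.0249). A second Serpinh1 probe set differed by -1.50 and was called as well. Serpinf1 (PEDF), a non-inhibitory serpin, read 7.06 and 7.23 against 7.88 and 8.04. Its -0.82 ± 0.20 passed the adjusted p (0.0453) without reaching 2-fold, and its second probe set differed by -1.62 (adjusted p = 0.0695 among all probe sets). Leaving out single adult arrays ended the call of Serpinh1 each time (adjusted p 0.0934 to 0.146) and that of Serping1 in all but 1 case, without basal replicate 1 (0.0477 to 0.136).

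The fibroblast and endothelial marker sums given above were also higher in the basal arrays, and luminal replicate 2 exceeded luminal replicate 1 by a median of 0.54 log2 units over the fibroblast list. The 14 leukocyte markers summed to 550 and 764 in luminal and 827 and 973 in basal arrays, with none called and Ptprc, Cd3e, Itgam and Ms4a1 not above background. The part of these cell types in the basal excess of Plat, Htra1, Serping1, Serpinh1 and Serpina3n was not tested. Nor was it tested for the partner genes higher in basal arrays, such as Hgf, Eln and Bgn. In bulk samples such as these, fewer cells of a type and less RNA per cell cannot be told apart. Among 19 further genes of collagen folding and secretion, Plod2, a lysyl hydroxylase, was higher in basal arrays (-1.60 ± 0.17, adjusted p = 0.00895) and was the 1 called.

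Clade b serpins, which act mainly inside cells, gave 0 calls among 17 genes by limma, with 3 at an unadjusted p under 0.05. Over all 17096 genes, 5.49% were called and 5352 passed that unadjusted p. The clade b differences ran from -0.59 to 0.06. Serpinb5 (maspin), long used as a marker of myoepithelial cells, read 7.59 and 7.40 in luminal and 7.76 and 7.32 in basal arrays. The lineages overlapped, and the difference was -0.04 ± 0.21 (adjusted p = 0.923), with the same -0.04 from a second probe set near background. Only 3 of the 17 clade b genes lay above background. Serpinb6 and Serpinb9 copies are near-identical and uncertain in identity. Of 25 genes listed with the clade b serpins (cathepsins, granzymes, other leukocyte and mast cell proteases, caspase 1 and perforin), the 1 called was Ctsh, a lysosomal cysteine protease, higher in luminal arrays (1.02 ± 0.16, adjusted p = 0.0192).

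Inhibitors outside the set also lay on both sides. Of 31 measured, the whey acidic protein family members Wfdc2 (1.66 ± 0.20, adjusted p = 0.0115) and Wfdc12 (1.66 ± 0.25, adjusted p = 0.0171) were higher in luminal arrays. Slpi, an inhibitor of neutrophil elastase, was higher in basal arrays (-1.51 ± 0.22, adjusted p = 0.0155), as was the proteoglycan Spock2 (-3.17 ± 0.29, adjusted p = 0.00641). Wfdc2 also stood in the list of luminal markers. Of 22 coagulation genes and protease receptors outside the set, protein C (Proc) was higher in luminal arrays (1.41 ± 0.20, adjusted p = 0.0147). Its receptor Procr (-1.75 ± 0.21, adjusted p = 0.0110), its cofactor Pros1 (-1.89 ± 0.35, adjusted p = 0.0257) and the thrombin receptor F2r (-1.80 ± 0.31, adjusted p = 0.0222) were higher in basal arrays. F3 (tissue factor), which starts coagulation, differed by 0.90 and was not called. Of 13 further genes of epidermal desquamation, Sbsn, a secreted protein of stratified epithelia, was the 1 called (1.06 ± 0.21, adjusted p = 0.0288), higher in luminal arrays. Each of the 17 called genes named here from the partner lists lost its call in at least 1 fit that left out an adult array. None changed sign in those fits, and none could, since their luminal and basal arrays did not overlap.

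**Figure D5:**
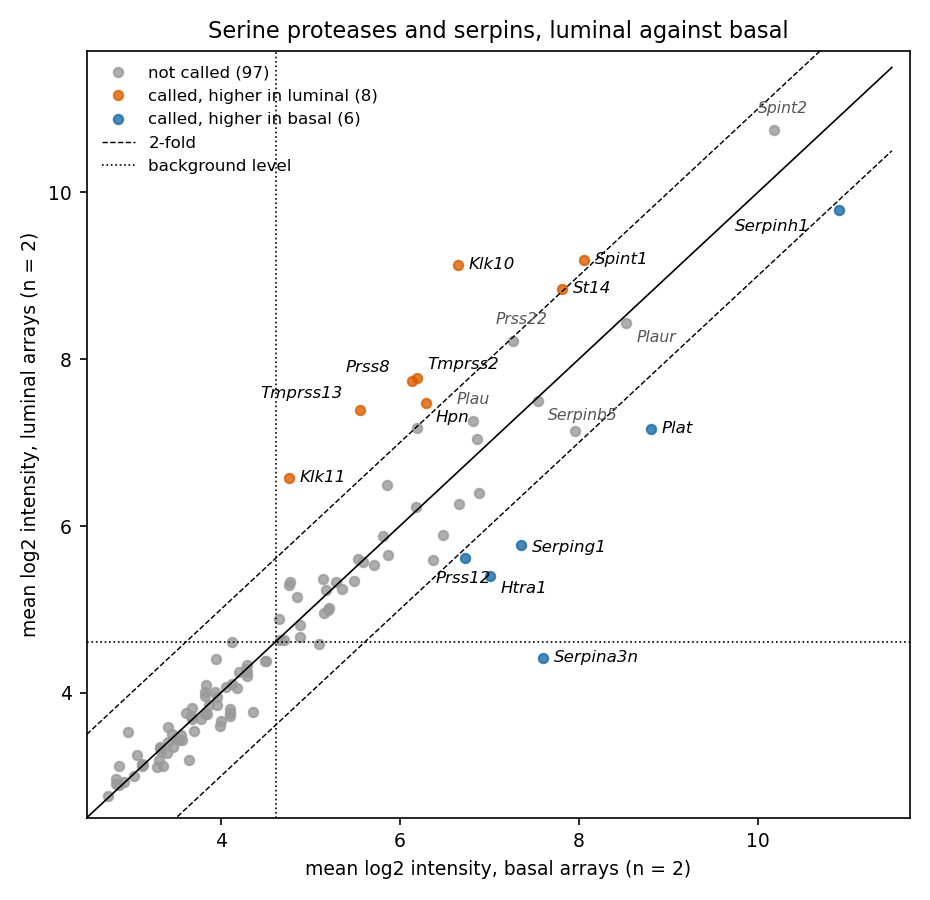
Mean log2 intensity in the luminal (vertical axis) and basal (horizontal axis) arrays for all 111 genes, with the line of equality, dashed lines at 2-fold and dotted lines at the background level of 4.61. The uncalled genes keep within the 2-fold lines, and 61 genes lie at or under background in both lineages.

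The 97 genes that were not called all differed by less than 2-fold, from -0.82 to 0.99. Much of the set was dim: 50 genes lay above background in at least 1 lineage, 48 in both and 61 in neither, so for those 61 a difference was not measurable at this signal. The background level was set by 87 probe sets of odorant, pheromone and taste receptors, of which none was called. Against a stricter level of 5.97, from 56 probe sets of 42 genes of other organs, 28 genes were above it. All 14 called genes were among those, since each was above it in its brighter lineage. At an unadjusted p under 0.05, 31 of the 111 and 5352 of all 17096 genes passed.

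In the embryonic cells, all 3 arrays of each of the 14 called genes lay between the luminal and basal means, and 107 of the 111 genes had an embryonic mean within 0.5 of the adult mean. That placement carries the limits of the embryonic columns given above: for 50 of the 111 genes, replicates 1 and 2 held the same value, and for 21 of them all 3 did, including Serpina3n, Tmprss2, Klk11 and Tmprss13. Embryonic minus basal, 0 of the 111 genes were called in limma (0.0702% of all genes, 12 in number); 11 passed an unadjusted p under 0.05, the lowest adjusted p being 0.0809. In 6 of the other settings tried, Serpina3n was called in that comparison at -2.31, with adjusted p from 0.0218 to 0.04998. Embryonic minus luminal, 1 was called (0.0234% of all genes, 4 in number): Tmprss13, with 5.93 in all 3 embryonic arrays and a difference of -1.46 ± 0.10 (adjusted p = 0.0210), lost without any one adult array and without embryonic replicate 1 or 2. The comparisons share the adult arrays, and the embryonic values were not independent of one another, so these calls are given as values of the table only.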

How the data were processed

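RNA of 7 sorted samples was amplified and hybridised, per the labels' protocols. For adult samples that text repeats the embryonic protocol, while the sources used here do not say how adult cells were handled. The authors deposited probe set intensities on a linear scale. RMA and affy are named in the submitters' processing notes, with neither version nor settings, nor a statement on whether embryonic and adult arrays were summarised together. Values on a log2 scale had been planned for, and each deposited intensity was therefore converted to log2.

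Of 45141 rows, 4 without values and 104 controls were left out. The platform annotation gave 28895 of the 45033 probe sets 1 symbol, 551 several, and 15587 were unlisted. All 111 members matched the gene table by Entrez ID, with 0 renamed, and were ordered by its GRCm38.p6 positions, with neighbours within 10 protein-coding genes forming a run. The 95th percentile of silent probe sets gave a background level of 4.61 (intensity 24.5). The array medians were 5.05 to 5.08.

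Limma 3.58.1 in R 4.3.3 fitted 3 group means with eBayes (residual df 4, prior df 2.29), with Benjamini-Hochberg adjustment over 17096 genes. The fit was tried on simulated data in which all arrays were independent. That trial does not cover the values shared between embryonic columns. Figures used matplotlib 3.10.9 in Python 3.11.15. Named were a core of 16 genes (not all of them reported here), every called member, up to 8 uncalled members of highest level, and called genes of each partner list (up to 4 per direction) with at most 2 uncalled. The members and lists were chosen with earlier results of these data known. The heat shock motif, the stricter background and the averaged embryonic replicates were chosen after seeing the data. The other settings tried changed the choice of probe set, the filter on dim genes, the normalization, the eBayes prior, weights for arrays, the fold required, which arrays entered, a replicate block, and left out each replicate.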

Additional observations from a re-analysis of the deposited data

How the results depend on the processing

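The count of 14 called genes stayed between 13 and 15 in 12 of the 14 alternatives other than leaving out an adult array. No sign changed for the 14 or for the 17 called partner genes. Leaving out arrays could not change one, since the luminal and basal arrays of these genes did not overlap. Among uncalled genes, Klk1 changed sign with the mean of its probe sets (0.10). With single replicates left out, Plaur ran from -0.38 to 0.18, Serpinb5 from -0.26 to 0.17, Klk7 from -0.015 to 0.15, Klk4 from -0.074 to 0.10 and Serpina3i from -0.31 to 0.17. It was 9 with array weights, where Spint1, Hpn, Serpinh1, Htra1 and Prss12 lost the call (adjusted p 0.0639 to 0.178, limma), and 19 with no minimum fold. Leaving out single replicates gave 2 to 14 genes; an arm left with 1 array is then assumed to vary like the others. Over all genes the count of 939 became 605 with array weights, 2223 with no minimum fold, and 60 to 1178 as single replicates were left out. Embryonic minus basal, 1 gene in place of 0 was called with the mean of a gene's probe sets, dim genes left out, eBayes with trend and robust, array weights, the replicate block, and the stricter background. Embryonic minus luminal, 2 genes in place of 1 were called with the mean of probe sets, dim genes left out and the stricter background, 4 with array weights or the replicate block, 0 with embryonic replicates 1 and 2 averaged, and 0 to 3 as single replicates were left out. Adult replicates share only a number: luminal and basal deviations correlated at 0.079 over 2 pairs, and the replicate block left 14 members called between the lineages. Signal limits the rest, as 61 of the 111 genes were at or under background in both lineages.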
